A study of Homo sapiens with 9 samples.

Results

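Open chromatin was described at 9 genes of the WNT pathway in VCaP prostate cancer cells and in an enzalutamide-resistant derivative. The members are the merged ATAC-seq regions that overlap 9 fixed hg19 windows, 1 around each of WNT5A, LGR5, RNF43, ZNRF3, APC, AXIN2, CTNNB1, LEF1 and TCF7L2. There were 92 such regions among 94773 in the genome (chromosomes 1 to 22 and X), and the windows together span 1.83 Mb. A region is a stretch where peaks of any of the 9 libraries overlap by at least 1 bp, and it counts as called in a library that has a peak there. ATAC-seq marks open DNA by the places where the transposase Tn5 inserts adapters. VCaP is an established line grown from a metastasis of prostate cancer. Its libraries form the groups VCaP_DMSO (cells labelled as treated with DMSO, the solvent) and VCaP_ENZ (10 µM enzalutamide, an androgen receptor antagonist, for 96 h). VCaP16 libraries come from enzalutamide-resistant VCaP cells, kept in 16 µM of the drug, and the labels give the genotype of all libraries as WT. Each group has 3 libraries. Every VCaP16 library was made under drug. Against VCaP_DMSO, resistance and exposure therefore cannot be told apart, and the doses of both drug groups differ. The labels do not say whether replicates came from separate cultures, and the p-values given here cover only the spread among the libraries, which may be technical. The place of a region relative to exons, introns and start sites was not determined.

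In canonical WNT signalling, a WNT ligand binds Frizzled and LRP receptors and stops a destruction complex from degrading β-catenin, which then joins TCF/LEF factors on DNA and switches on target genes. APC and AXIN2 are scaffolds of that complex, and AXIN2 is also a widely used target gene. RNF43 and ZNRF3 are membrane ubiquitin ligases that remove Frizzled from the cell surface, and LGR5 is a receptor for R-spondins, which hold those ligases in check. WNT5A is a ligand that mostly acts without β-catenin. In prostate cancer the pathway is known for recurrent alterations of APC, CTNNB1, RNF43 and ZNRF3 in castration-resistant disease, and β-catenin can bind the androgen receptor.

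The DNA of the called regions is not printed, since no hg19 genome was used here. RefSeq promoters on GRCh38.p14 were found for 6 of the 9 genes (LEF1, TCF7L2, RNF43, CTNNB1, WNT5A and APC), 11 promoters in all. The 250 bases before each start were searched on both strands for the TCF/LEF motifs CTTTGAA and CTTTGAT and for the androgen receptor half-site AGAACA, and no matches overlapped. A TCF/LEF motif was in 0 of the 11 promoters and in 5.94% of 35116 human promoters of the same length. The half-site was in 4 of the 11 and in 12.4% of all. The promoters that hold a half-site are shown because the androgen receptor is the target of the drug, with the half-site in capitals and each read 5′ to 3′ along its gene. A match of letters is a description and no site of binding, and whether these bases lie under the called regions was not determined because the builds differ.
LEF1: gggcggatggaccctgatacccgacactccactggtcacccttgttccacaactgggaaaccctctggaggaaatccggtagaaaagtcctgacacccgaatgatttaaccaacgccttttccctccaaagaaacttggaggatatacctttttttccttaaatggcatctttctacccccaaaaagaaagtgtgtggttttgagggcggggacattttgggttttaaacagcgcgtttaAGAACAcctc
TCF7L2 (the middle of its 3 promoters): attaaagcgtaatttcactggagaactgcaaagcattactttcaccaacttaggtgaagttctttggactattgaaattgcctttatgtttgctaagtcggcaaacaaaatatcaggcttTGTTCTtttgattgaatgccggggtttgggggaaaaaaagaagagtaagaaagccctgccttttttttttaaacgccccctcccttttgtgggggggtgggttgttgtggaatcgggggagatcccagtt
RNF43 (the upstream of its 2 promoters): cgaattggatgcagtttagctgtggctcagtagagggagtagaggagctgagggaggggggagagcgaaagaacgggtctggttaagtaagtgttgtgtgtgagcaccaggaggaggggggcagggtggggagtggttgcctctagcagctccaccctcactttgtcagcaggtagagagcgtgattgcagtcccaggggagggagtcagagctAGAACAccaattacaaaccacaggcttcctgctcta
APC (the upstream of its 2 promoters): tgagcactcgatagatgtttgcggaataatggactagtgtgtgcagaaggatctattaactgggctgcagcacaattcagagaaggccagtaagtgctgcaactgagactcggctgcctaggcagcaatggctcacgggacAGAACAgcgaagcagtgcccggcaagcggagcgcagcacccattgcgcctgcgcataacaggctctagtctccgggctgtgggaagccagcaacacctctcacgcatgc

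Of the 92 regions, 26 (28.3%) were called in all 9 libraries, 45 in 2 to 8 and 21 (22.8%) in a single one. Over all 94773 regions the shares were 34.9% in all 9 and 22.6% in a single library. The regions lay at 5.03 per 100 kb in the windows and at 3.62 per 100 kb over the 13104 bins of 200 kb that hold a peak. Their median width was 483 bp, against 501 bp in the genome. Peaks were ranked by the authors' score within each list, and a rank is given as percent from the top, so that a low value marks a strong peak. The median rank of the 26 regions called everywhere was 35.7% from the top, against 30.2% for the 33033 such regions of the genome. In the top 25% lay 9 of the 26 and 13641 of the 33033, so the share in the windows was the smaller. No test was made of these differences. Scores and ranks of different lists are given side by side below as a description, and no change is read from them.

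**Figure D1:**
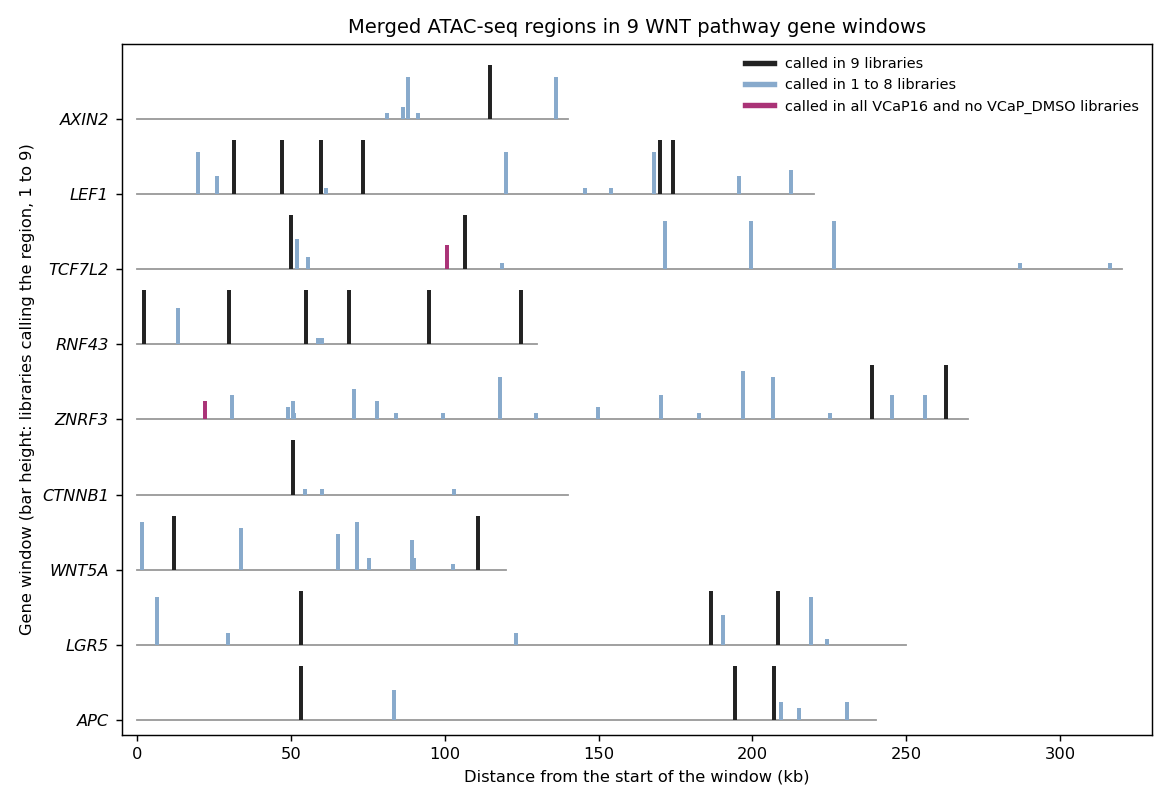
Merged regions in the 9 gene windows. The x axis is the distance from the start of each window in kb, each row is a window, and the height of a bar is the number of libraries (1 to 9) that call the region; RNF43 has 6 regions called in all 9 libraries, CTNNB1 has 1, and the 2 regions called in all VCaP16 and no VCaP_DMSO libraries lie in the TCF7L2 and ZNRF3 windows.

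The number of the 92 regions called was 52, 58 and 48 in the VCaP_DMSO libraries, 49, 57 and 49 in VCaP_ENZ and 49, 54 and 59 in VCaP16. The groups overlapped fully, with means of 52.7 ± 5.03, 51.7 ± 4.62 and 54.0 ± 5.0 (SD, n = 3 each). Whole lists held 53646 to 68921 peaks, with the longest in VCaP16 replicate 3. That library also called the most regions of the windows, 64.1% of them, and 71.5% of all regions. The lists hold no read counts, so depth is unknown, and the part of list length in a difference was not tested except through lists of equal length. Peaks covered 23.3 ± 3.27 kb of the windows in VCaP_DMSO, 23.1 ± 2.71 kb in VCaP_ENZ and 25.2 ± 2.86 kb in VCaP16. As a share of all covered bases this was 0.0814% ± 0.00867, 0.0816% ± 0.00289 and 0.0809% ± 0.00397 (SD, n = 3 each).

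Single regions were compared by counting those called in all libraries of one group and in none of the other. Between VCaP_ENZ and VCaP_DMSO, 0 of the 92 regions were called in VCaP_ENZ alone and 0 in VCaP_DMSO alone, where 0.653% and 0.557% of all regions were. In VCaP16 against VCaP_DMSO, 2 regions were called in the resistant line alone (2.17%, with 1.63% over the genome) and 0 in the solvent group alone (0.532% over the genome). In VCaP16 against VCaP_ENZ the counts were 1 (1.09%, with 1.13% over the genome) and 0 (0.41% over the genome). Against all 6 VCaP libraries, 1 region (1.09%) was called in VCaP16 alone, where the genome had 0.549%, and 0 in the reverse, where it had 0.0876%. No region set VCaP_DMSO apart from the 6 libraries given the drug, in either direction (0.16% and 0.226% over the genome). Each share rests on 0 to 2 of the 92 regions, too few to judge how it compares with the genome. The comparisons share libraries and are not independent. Taking 2 calls of 3 as enough gave 2 of 92 regions (2.17%) in each direction between VCaP_ENZ and VCaP_DMSO, where 2.9% of all regions were then called in VCaP_ENZ alone and 2.39% in VCaP_DMSO alone. By that rule 3 of the 92 were in VCaP16 and not VCaP_DMSO and 1 in the reverse, where 5.5% and 2.09% of all regions were.

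The region called in VCaP16 alone lay in the ZNRF3 window, the ligase that lowers Frizzled, at chr22:29251715-29252222. Its peaks scored 5.08, 6.17 and 13.2 in VCaP16 replicates 1, 2 and 3, and none of the 6 VCaP libraries had a peak there. All 3 peaks were weak to middling within their lists, at 83.2%, 79.3% and 51.3% from the top. They were 385, 316 and 503 bp wide, and those of replicates 1 and 2 shared 193 bp. The region was called in the same 3 libraries with a minimum score of 5 and with lists of equal length. In Fisher's exact test of 3 against 6 libraries its p was 0.0119, the smallest this design can give, and 1.0 after Benjamini-Hochberg adjustment over all 94773 regions.

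The other region called in all VCaP16 and no VCaP_DMSO libraries lay in the window of TCF7L2, a DNA-binding partner of β-catenin, at chr10:114760276-114761155. Its peaks scored 11.3, 8.83 and 10.2 in VCaP16 replicates 1, 2 and 3, at 50.4%, 64.6% and 61.9% from the top. The VCaP16 peaks were 566, 620 and 623 bp wide and shared 561 to 589 bp with each other, so they lay nearly on top of one another. The region was also called in VCaP_ENZ replicate 2, by a peak of 254 bp with a score of 3.73 at 95.1% from the top. That peak lay at the far end of the region and shared 28 bp with VCaP16 replicate 3 and 0 bp with replicates 1 and 2. With a minimum score of 5, with lists of equal length or when counting a call only where peaks cover at least 50% of it, the TCF7L2 region too was called in VCaP16 alone. Fisher's exact test against the 6 VCaP libraries gave p = 0.0476 (adjusted p = 1.0 over all regions). An unadjusted p under 0.05 toward VCaP16 was reached by 2 of the 92 regions and 1.33% of all regions, and away from it by 0 of 92 and 0.296% of all. No region in the genome passed the adjustment. The smallest p possible for 3 against 6 libraries is 0.0119, so a pass would need a large part of the 94773 regions at that p. The adjusted p therefore cannot decide whether a single region differs.

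**Figure D2:**
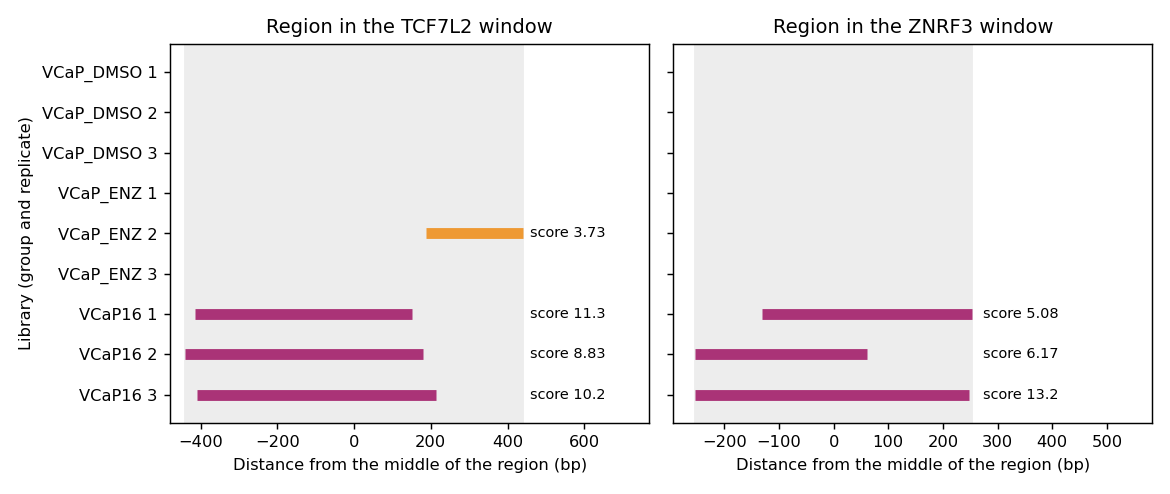
Peaks by library at the TCF7L2 and ZNRF3 regions called in all VCaP16 and no VCaP_DMSO libraries. The x axis is the distance in bp from the middle of the merged region (grey), each row is a library, bars span the peaks and the authors' score stands beside each; the VCaP_ENZ replicate 2 peak (score 3.73) overlaps 1 of the 3 VCaP16 peaks, by 28 bp.

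Each window was also compared as a whole, by the bases that peaks of a library cover in it, between VCaP16 and the 6 VCaP libraries. The two-sided exact permutation test has 84 arrangements and a smallest p of 0.0119, and p-values were adjusted over the 9 windows and all 13104 bins. In 0 of the 9 windows was p under 0.05, where 8.81% of bins were higher and 0.527% lower in VCaP16 at that threshold. By the share of its regions called per library, again 0 of 9 windows had p under 0.05, where 4.71% of bins were higher and 0.336% lower. The smallest adjusted p over windows and bins was 0.403 for covered length and 0.765 for the share called. Between groups of 3, the smallest possible p is 0.1. For VCaP_ENZ against VCaP_DMSO the smallest p among the covered lengths was 0.2, at LEF1, whose mean was 4657 ± 535 bp in VCaP_DMSO and 4022 ± 755 bp in VCaP_ENZ (SD, n = 3 each, exact permutation test, adjusted p = 1.0).

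**Figure D3:**
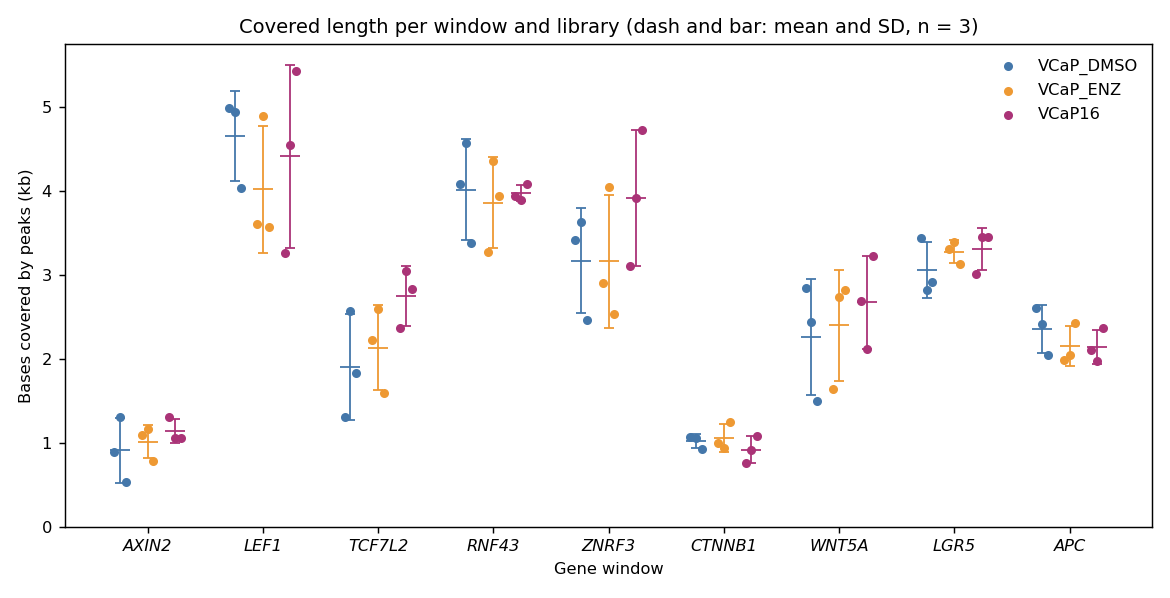
Bases covered by peaks in each gene window, in kb (y axis), by window (x axis) and group. Points are the 3 libraries of a group, and the dash and bar are their mean and SD; the groups overlap in every window, and TCF7L2 has the VCaP16 libraries at 2.36 to 3.05 kb beside 1.31 to 2.59 kb in the 6 VCaP libraries.

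WNT5A, the ligand of the set, had 10 regions in 120 kb (chr3:55450001-55570000), 8.33 per 100 kb, which was the densest of the windows. Only 2 of the 10 were called in all 9 libraries. The stronger, at chr3:55560376-55561031, ranked 16.4% to 49.1% from the top, with a median of 21.2%. It was weakest in VCaP16 replicate 1, where its score was 11.8, and scored 21.6 and 30.5 in the other VCaP16 libraries and 24.1 to 31.2 in VCaP. The next, at chr3:55461577-55462332, was weak, with a median of 75.4% and a range of 43.4% to 94.4%. Covered length was 2844, 2439 and 1493 bp in VCaP_DMSO, 1636, 2741 and 2824 bp in VCaP_ENZ and 2689, 2114 and 3224 bp in VCaP16. The groups overlapped, and VCaP16 was 346 bp higher than VCaP on average (exact permutation p = 0.44, adjusted p = 0.825). This WNT5A value rested on single libraries and on the window's edges: it was 72 bp without VCaP16 replicate 3, 627 bp without VCaP16 replicate 2, 84 bp with lists of equal length and 13.7 bp with windows narrowed by 20 kb on each side.

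LGR5, the R-spondin receptor and a stem cell marker, had 9 regions in 250 kb (chr12:71780001-72030000), and 3 were called everywhere. The leading one, at chr12:71832566-71834348, was the widest of the 92 at 1783 bp, and its peaks were 994 to 1766 bp wide. It ranked 19.8% to 47.4% from the top, with a median of 29.0%. The next, at chr12:71987913-71988540, had a median of 52.7%, and the third, at chr12:71966059-71966922, of 70.9%. All VCaP_DMSO and VCaP16 libraries called 6 LGR5 regions, and the VCaP_ENZ libraries called 6, 5 and 6. Covered length was 3435, 2815 and 2912 bp in VCaP_DMSO, 3314, 3387 and 3125 bp in VCaP_ENZ and 3016, 3449 and 3447 bp in VCaP16, a spread in which no group stood apart (VCaP16 against VCaP, exact permutation p = 0.429, adjusted p = 0.817).

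The windows of the Frizzled ligases differed in how many of their regions were called everywhere. RNF43 had 9 regions in 130 kb (chr17:56400001-56530000), of which 6 (66.7%) were called in all 9 libraries, and it held the strongest regions of the set. The best, at chr17:56494527-56495444, ranked 3.3% to 8.4% from the top, with a median of 4.95%. The next, at chr17:56429259-56430431, had a median of 7.6% and ranked 4.56% from the top in VCaP16 replicate 3 and 14.1% in VCaP16 replicate 1, nearly the whole range of the 9 libraries. The other regions called everywhere had medians from 11.8%, at chr17:56524614-56525280, to 42.6%, at chr17:56401802-56402874. RNF43 covered length was 4088, 4575 and 3384 bp in VCaP_DMSO, 3278, 4352 and 3940 bp in VCaP_ENZ and 3943, 3898 and 4086 bp in VCaP16. The means of VCaP16 and VCaP were 3976 and 3936 bp (exact permutation p = 0.881, adjusted p = 0.983).

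ZNRF3 had the most regions, 21 in 270 kb (chr22:29230001-29500000), yet 2 of them (9.52%) were called in all 9 libraries, 13 in 2 to 8 and 6 in a single one. Its leading region, at chr22:29468443-29468958, was steady, at 18.9% to 32.6% from the top (median 23.4%). The next, at chr22:29492629-29493322, ranked 58.7%, 76.2% and 86.6% from the top in VCaP_DMSO, 32.7%, 31.0% and 34.0% in VCaP_ENZ and 65.3%, 60.4% and 44.4% in VCaP16. A region at chr22:29399900-29400519 was called in VCaP_ENZ replicates 2 and 3 and VCaP16 replicates 2 and 3 and in no VCaP_DMSO library, and one at chr22:29347857-29348340 in all libraries given the drug and in VCaP_DMSO replicate 2. Over the genome, 1.95% of regions were called in at least 4 of the 6 libraries given the drug and in no VCaP_DMSO library. Other ZNRF3 regions went the other way. Those at chr22:29260758-29261238 and chr22:29475156-29475846 were each called in 2, 1 and 1 libraries of VCaP_DMSO, VCaP_ENZ and VCaP16. ZNRF3 regions called per library numbered 6, 9 and 7 in VCaP_DMSO, 8, 11 and 7 in VCaP_ENZ and 9, 11 and 12 in VCaP16. The VCaP16 libraries lay toward the upper end, and their range met those of both VCaP_DMSO and VCaP_ENZ, with a share called of 50.8% ± 7.27 (SD, n = 3) against 38.1% ± 8.52 over the 6 VCaP libraries (exact permutation p = 0.0952, adjusted p = 0.877). Covered length was 3415, 3633 and 2464 bp in VCaP_DMSO, 2903, 4045 and 2531 bp in VCaP_ENZ and 3110, 3914 and 4721 bp in VCaP16, a mean difference of 750 bp (exact permutation p = 0.167, adjusted p = 0.647). The VCaP16 values include the peaks of 385, 316 and 503 bp at chr22:29251715-29252222, where no VCaP library had a peak. The window and that region are therefore not separate results. The difference in covered length was 347 bp without VCaP16 replicate 3, the longest list, and 1152 bp without VCaP16 replicate 1, and with lists of equal length it turned to -257 bp (exact permutation p = 0.452). With lists of equal length the difference in share called was 0 points (exact permutation p = 1.0). With single libraries left out that difference ran from 10.0 points, without VCaP16 replicate 3, to 17.5 points, with exact permutation p from 0.0357 to 0.321. The lowest of these p-values came without VCaP_ENZ replicate 2, where 4.15% of bins were higher in VCaP16 at p under 0.05.

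In the destruction complex, APC had 7 regions in 240 kb (chr5:111990001-112230000), 3 of them called everywhere and none in a single library. The best, at chr5:112042639-112043720, ranked 5.5% to 20.2% from the top (median 12.8%), and the next, at chr5:112196626-112197344, had a median of 13.5%. The third, at chr5:112183857-112184549, had a median of 42.0%. Each VCaP_DMSO library called 5 APC regions, the VCaP_ENZ libraries called 4, 4 and 5, and each VCaP16 library called 4. VCaP16 thus did not overlap VCaP_DMSO (exact permutation p = 0.1, the smallest possible for 3 against 3). In 0.878% of bins every VCaP16 library was likewise lower than every VCaP_DMSO library in the share called, and in 6.23% every one was higher. VCaP_DMSO was 11.9 points above the 6 libraries given the drug in the share called (exact permutation p = 0.0476, adjusted p = 1.0), where 0.58% of bins were higher and 1.66% lower in VCaP_DMSO at that threshold. The exact permutation p was over 0.05 in 14 of the 16 alternatives, among them each of the 3 omissions of a VCaP_DMSO library (p = 0.107), and the difference was 0 points when peaks had to cover 50% of a region. The difference is at most 1 region per library, and no single APC region carried it. The region at chr5:112073126-112073943 was called in 2, 2 and 1 libraries of VCaP_DMSO, VCaP_ENZ and VCaP16, that at chr5:112199314-112199565 in 2, 1 and 0, and that at chr5:112220643-112221004 in 2, 0 and 1. The remaining APC region not called everywhere, at chr5:112204965-112205182, went the other way, with 0, 1 and 1. Covered length, at 2611, 2412 and 2045 bp in VCaP_DMSO, 1987, 2042 and 2431 bp in VCaP_ENZ and 2104, 1969 and 2366 bp in VCaP16, overlapped between groups (VCaP16 against VCaP, exact permutation p = 0.524, adjusted p = 0.864).

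AXIN2 had 6 regions in 140 kb (chr17:63470001-63610000) and the weakest leading region of the 9 windows. It lay at chr17:63584238-63585084, was the one AXIN2 region called in all 9 libraries, and ranked 51.0% to 94.0% from the top (median 66.3%). A region at chr17:63557735-63558272 was called in all VCaP_DMSO, all VCaP16 and 1 of the VCaP_ENZ libraries, with scores of 4.1 to 5.26. AXIN2 covered length was 893, 1305 and 528 bp in VCaP_DMSO, 1088, 1168 and 788 bp in VCaP_ENZ and 1308, 1053 and 1058 bp in VCaP16, with full overlap (VCaP16 against VCaP, exact permutation p = 0.357, adjusted p = 0.773). CTNNB1, which encodes β-catenin, had 4 regions in 140 kb (chr3:41190001-41330000), the sparsest window at 2.86 per 100 kb. Of these 1 was called in all 9 libraries and the other 3 in a single library each. That shared region, at chr3:41240179-41241279, ranked 16.3% to 51.2% from the top (median 26.1%). Its peaks were 895, 1063 and 929 bp wide in VCaP_DMSO, 997, 937 and 1023 bp in VCaP_ENZ and 759, 917 and 887 bp in VCaP16, so VCaP16 lay at the lower end with overlap. CTNNB1 covered length was 919 ± 161 bp in VCaP16 (SD, n = 3) and 1041 ± 119 bp in the 6 VCaP libraries (exact permutation p = 0.262, adjusted p = 0.737). With a minimum score of 5 the CTNNB1 difference was -149 bp with an unadjusted exact permutation p of 0.0119, a setting in which 0.582% of bins were lower in VCaP16 at p under 0.05. With lists of equal length it was -187 bp with an unadjusted exact permutation p of 0.0476, and 1.89% of bins were lower. It ran from -42.3 bp without VCaP16 replicate 1 (exact permutation p = 0.714) to -203 bp without VCaP16 replicate 3 (p = 0.107), was 260 bp with windows widened by 50 kb on each side, and by number of peaks was 0 (p = 1.0).

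Of the TCF/LEF factor genes, LEF1 had 15 regions in 220 kb (chr4:108920001-109140000), and 6 were called in all 9 libraries. The leading region, at chr4:108979709-108980194, ranked 13.9% to 36.2% from the top (median 24.1%), and the next, at chr4:109089555-109090615, 14.6% to 47.8% (median 26.6%). The latter scored highest in VCaP_DMSO replicate 1 (39.6) and lowest in VCaP_ENZ replicate 3 (12.2), and it lies between a region at chr4:109087613-109088350, called in 7 libraries, and one at chr4:109093798-109094714, called in all 9. LEF1 covered length was 4986, 4946 and 4040 bp in VCaP_DMSO, 3604, 4894 and 3568 bp in VCaP_ENZ and 3262, 4550 and 5426 bp in VCaP16. The VCaP16 libraries held both the lowest and the highest of the 9 values (VCaP16 against VCaP, exact permutation p = 0.869, adjusted p = 0.98). TCF7L2 had 11 regions in 320 kb (chr10:114660001-114980000), the longest window, with 2 called everywhere. Those, at chr10:114766091-114766943 and chr10:114709685-114710143, were of middling rank, with medians of 39.4% and 43.8% from the top. Covered length was 1305, 2570 and 1834 bp in VCaP_DMSO, 2224, 2591 and 1589 bp in VCaP_ENZ and 2362, 3051 and 2835 bp in VCaP16. The 2 highest values were VCaP16 libraries and the third VCaP16 library lay below 2 VCaP libraries. The VCaP16 values include the peaks of 566, 620 and 623 bp at chr10:114760276-114761155, and that of VCaP_ENZ replicate 2 includes 254 bp there. The window and that region are therefore not separate results. The mean difference of 731 bp had an exact permutation p of 0.0714 (adjusted p = 0.547). With a minimum score of 5 it was 815 bp with an unadjusted exact permutation p of 0.0238, a setting in which 7.93% of bins were higher in VCaP16 at p under 0.05. With lists of equal length it was 511 bp (exact permutation p = 0.107). As a share of the bases a library covers, the difference had an exact permutation p of 0.226, and by number of peaks it was 1 peak with p = 0.56. With single libraries left out it ran from 580 to 924 bp, with exact permutation p from 0.0536 to 0.214.

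**Figure D4:**
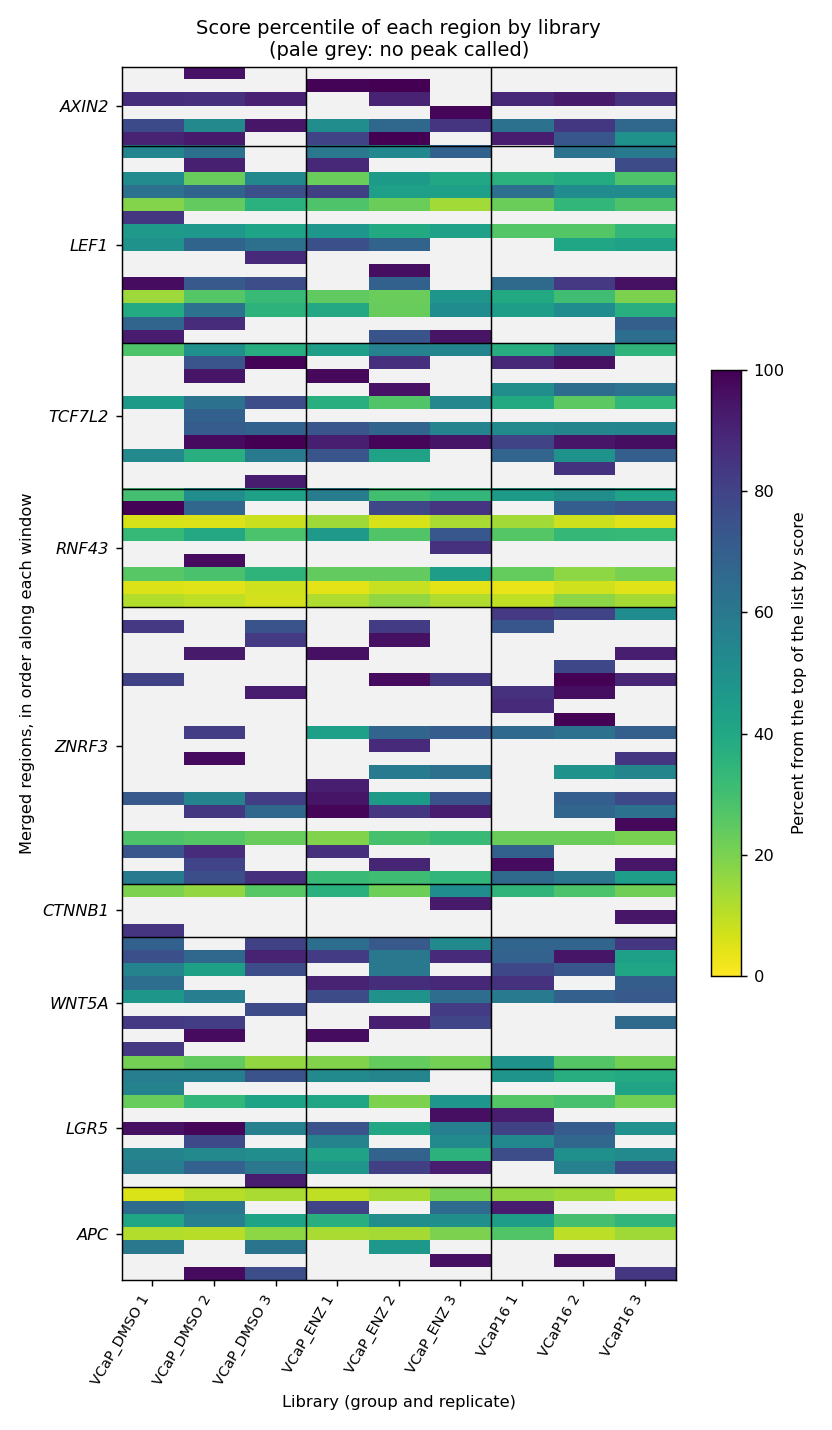
Rank of each of the 92 regions in each library. Rows are regions in order along each window and columns are libraries. Colour is the percent from the top of the list by score (0 is strongest) and pale grey means no peak. RNF43 regions with medians of 4.95% and 7.6% and APC regions with 12.8% and 13.5% lay 27.1% from the top or better everywhere. Many ZNRF3 rows are called in few libraries.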

How the data were processed

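Peak lists of 9 libraries were used, 3 each of VCaP_DMSO, VCaP_ENZ and VCaP16, and were treated as bulk ATAC-seq. Per the labels' protocols, cells for bulk ATAC-seq were fixed with formaldehyde before tagmentation, and a single-cell preparation is described in the same text. Per the submitters' processing notes the build is hg19 and the tools are MACS2 2.2.7.1, HOMER 3.12 and BWA 0.7.15-r1140. Which step each did, its settings, and any shift of reads for Tn5 are not given in the sources used here. For every library the authors deposited 1 list with a score per peak that was never below 2. What the score measures is not stated, and here it only orders or filters the peaks of 1 list.

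From these lists, peaks were merged at an overlap of at least 1 bp, and window values, calls and covered bases were computed with Python 3.11.15, numpy 2.4.6, pandas 2.3.3 and SciPy 1.17.1. Calls per region were compared with Fisher's exact test over all regions, and windows with exact permutation tests beside all bins of 200 kb that hold a peak, with Benjamini-Hochberg adjustment. The merging was checked on a small made-up list with a known answer. The counting of region patterns was checked on simulated calls with the pattern put in. The permutation test was checked on bin values with an added shift far above the simulated spread. These checks cover the code and do not show how well differences in these data would be found. The members, windows and settings were chosen with earlier results of these data known. In each window the text names the 2 best-ranked regions called in all 9 libraries and every region called in all libraries of one group and none of another; other regions named (AXIN2, APC, LEF1, RNF43, LGR5 and ZNRF3) were chosen after their values were seen. No hg19 annotation was used, so whether a region lies at a start site, in an exon or in a neighbouring gene was not determined, and other WNT genes were not analysed here. In the RefSeq gene table of GRCh38.p14, the protein-coding neighbours by order are RGS9 and CEP112 for AXIN2 and SUPT4H1 and HSF5 for RNF43. They are XBP1 and C22orf31 for ZNRF3, ZNF621 and ULK4 for CTNNB1, and EPB41L4A and SRP19 for APC. For LEF1 they are HADH and LOC124900752, for TCF7L2 VTI1A and HABP2, for WNT5A LRTM1 and ERC2, and for LGR5 TSPAN8 and ZFC3H1. Which of these reach into the hg19 windows was not determined, so a region in a window need not belong to the gene that names it. Other settings are listed in the closing section.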

Additional observations from a re-analysis of the deposited data

How the results depend on the processing

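Over 479 recomputed values, 402 stayed on the same side of the threshold without turning in sign, or, for a count, within 1.5 times of the reported one, 35 counts moved by more than 1.5 times, 22 differences turned in sign, 6 passed an unadjusted threshold of 0.05 and 14 no longer passed it, all of them of the APC share in VCaP_DMSO against the libraries given the drug (0 to 19.4 points, exact permutation p from 0.0119 to 1.0). Except where an alternative changes the regions or libraries by its own construction, the cause was not tested. Among the 402 are values that became 0 and the shares of AXIN2 and CTNNB1 called, which are 0 as reported and ranged from -6.67 to 27.8 and from -11.1 to 10.0 points.

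The regions called in all of VCaP16 and none of VCaP_ENZ were 2 with a minimum score of 5, with lists of equal length (53646 peaks each), with the 50% overlap and with 2 of 3 calls as enough, where 1.34%, 0.96%, 1.43% and 4.59% of all regions were. Those in VCaP16 and none of the 6 VCaP libraries were 2 with the first 3 of these settings (0.642%, 0.447% and 0.659%). With lists of equal length 1 was in VCaP_DMSO and not VCaP_ENZ (0.723%). Those in VCaP16 and none of VCaP_DMSO were 3 with the 50% overlap (1.85%). With 2 of 3 calls enough (4 of 6 for drug libraries) 2 were in VCaP_DMSO and not VCaP_ENZ and 2 in the reverse. There was 1 in VCaP_DMSO and not VCaP16 (2.09%), 1 in VCaP_ENZ and not VCaP16 (1.97%), and 2 in drug libraries and not VCaP_DMSO (1.95%). With single libraries left out, regions in VCaP16 and not VCaP_DMSO were 2 to 4 (4 without VCaP_DMSO replicate 2). Those in VCaP16 and not VCaP_ENZ were 1 to 5 (3 without VCaP16 replicate 3, 5 without VCaP_ENZ replicate 2, 2.46% of all regions). Those in VCaP_DMSO and not VCaP_ENZ were 0 to 3 (3 without VCaP_ENZ replicate 2, 1.45%). No such share was computed for other omissions. Those in VCaP16 and none of the 6 were 1 to 2. The range was 0 to 1 for VCaP_ENZ and not VCaP_DMSO, VCaP_DMSO and not VCaP16, VCaP_ENZ and not VCaP16, and drug libraries and not VCaP_DMSO. Regions with an unadjusted Fisher's exact p under 0.05 ranged from 1 to 2.

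Differences in covered length that turned in sign were those of APC (402 bp) and CTNNB1 (260 bp) with windows widened by 50 kb; LEF1 (-11.8), LGR5 (-5.06) and RNF43 (-9.89) in bp for each Mb a library covers; LEF1 (-0.333), RNF43 (-0.333) and WNT5A (-0.5) by number of peaks; and ZNRF3 (-257 bp) with lists of equal length. LEF1 ranged from -434 to 648 bp and RNF43 from -92.1 to 167 bp with single libraries left out: LEF1 was -74.1 bp without VCaP_ENZ replicate 1, -81.3 bp without VCaP_ENZ replicate 3 and -434 bp without VCaP16 replicate 3, and RNF43 -70.9 bp without VCaP_DMSO replicate 3, -92.1 bp without VCaP_ENZ replicate 1 and -15.7 bp without VCaP16 replicate 3. Differences in the share of regions called turned for APC (7.14 points with the 50% overlap, 5.56 with wider windows), LEF1 (2.56 with a minimum score of 5, 3.33 without VCaP16 replicate 1, with a range of -13.3 to 3.33 over single libraries left out) and WNT5A (1.85 with a minimum score of 5, 11.7 with the 50% overlap, 4.76 when regions called in fewer than 2 libraries of every group were dropped). For APC this difference was -19.0 points, with an exact permutation p of 0.0357, with lists of equal length, where 1.45% of bins were lower at p under 0.05. Covered length with single libraries left out ranged from -218 to -19.7 bp for APC, 91.3 to 247 bp for AXIN2 and 66.8 to 283 bp for LGR5. The 50% overlap and the dropping of regions were not run for covered length, which uses no merged regions.

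Over 200 kb bins, deviations of same-numbered libraries across groups had r from -0.078 to 0.039 (9 pairs) and others -0.096 to 0.153 (18 pairs). A low r cannot exclude pairing by number. Exact permutation within replicate numbers (replicate block, 27 arrangements) gave p = 0.037, the lowest possible there, for the TCF7L2 covered-length difference of 731 bp. The APC share in VCaP_DMSO against the libraries given the drug went to an exact permutation p of 0.0741, and no other window value changed its side of 0.05.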
